A study of Mus musculus with 10 samples.

Results

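The Hox cluster genes were followed in single-cell RNA sequencing libraries of the mouse embryonic cortex. The members were all gene symbols made of Hox, a cluster letter and a number, which gave 39 symbols on 40 gene IDs among the 31053 IDs of the files, since Hoxd4 was listed under 2 IDs. Embryos at E16.5 were wild type for Gatad2b (WT, n = 3), heterozygous Gatad2b stop/+ (Het, n = 4) or homozygous Gatad2b stop/stop (KO, n = 3), on a C57BL/6N-Atm1Brd background, with 1 library per embryo. The stop allele carries a trapping cassette in an intron between the first and second coding exons, and it is not restricted to a cell type. Gatad2b is a subunit of NuRD, the nucleosome remodeling and deacetylase complex, in which it links the methyl-CpG binding proteins to the remodeler Chd4.

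Hox genes encode homeodomain transcription factors and lie in 4 clusters, HoxA to HoxD. Their order along each cluster follows the order of their expression along the body axis: genes with low paralogue numbers mark the hindbrain and those with high numbers mark the posterior spinal cord, trunk and limbs. The cerebral cortex arises anterior to this domain, and there the clusters are normally kept silent under Polycomb repression and H3K27 methylation. The comparison asked whether transcripts of these genes were found in a tissue that is not known to use them, and whether their number differed with the Gatad2b genotype, the position in the cluster and the class of cell.

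Hoxb13, Hoxc9 and Hoxc10 carried most of what follows, and their homeoboxes, the segments that encode the homeodomain, are shown. The capitals mark the 18 of 180 bases that encode the tryptophan to arginine core of the third helix, which contacts DNA. The sequences were read from the GENCODE vM21 transcripts.
Hoxb13: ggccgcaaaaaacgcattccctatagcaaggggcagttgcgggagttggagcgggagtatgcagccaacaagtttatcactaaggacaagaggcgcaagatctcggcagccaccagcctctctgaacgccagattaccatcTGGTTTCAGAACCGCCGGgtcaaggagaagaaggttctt
Hoxc9: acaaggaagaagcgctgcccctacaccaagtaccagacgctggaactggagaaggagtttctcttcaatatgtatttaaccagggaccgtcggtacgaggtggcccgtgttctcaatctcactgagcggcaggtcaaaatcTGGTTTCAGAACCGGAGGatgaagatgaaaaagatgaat
Hoxc10: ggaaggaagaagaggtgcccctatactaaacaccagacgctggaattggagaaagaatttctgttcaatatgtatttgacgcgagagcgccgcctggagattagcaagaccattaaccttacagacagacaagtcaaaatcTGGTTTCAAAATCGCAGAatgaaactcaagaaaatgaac

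The homeoboxes of Hoxc9 and Hoxc10, neighbours in the same cluster, were identical at 129 of 180 bases and at 49 of the 60 residues they encode. That of Hoxb13 shared 107 bases and 30 residues with Hoxc9, and 94 bases and 31 residues with Hoxc10. Its nearest member was Hoxc13 with 133 of 180 bases, whereas the nearest to Hoxc9 was Hoxb9 (151 bases) and the nearest to Hoxc10 was Hoxd10 (149 bases). Libraries of this kind count the 3′ ends of transcripts, and no run of 31 bases in the last 500 bases of the 3 genes was found in the annotated transcripts of any other gene. In the GRCm38 annotation Hoxb13 lies at chr11:96194316-96197447 on the plus strand, 74010 bases from Hoxb9, its nearest Hox neighbour. Hoxc9 lies at chr15:102976439-102985099 and Hoxc10 at chr15:102966796-102971893, both on the plus strand. Exons of Hoxc10 overlap those of Hoxc5 on the same strand, so reads there could be assigned to neither or to either gene, and the Hoxc10 count is uncertain to that extent. In all, 6 of the 39 IDs with coordinates overlapped another gene's exons on their own strand (Hoxa2, Hoxa3, Hoxc5, Hoxc10, Hoxd3 and Hoxd4) and 9 did so on the opposite strand.

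The files held 80071 cell barcodes, of which 65779 had at least 1000 unique molecular identifiers (UMIs, counts of captured molecules) and at most 10% mitochondrial UMIs. Between 5147 and 8103 cells were kept per embryo, with 82872641 to 123737385 UMIs per library and a median of 10795 to 17077.5 UMIs per cell. Gatad2b itself had 134 ± 4.35 counts per 1000000 (CPM) in WT (SD, n = 3), 92.4 ± 2.97 in Het (n = 4) and 53.7 ± 3.28 in KO (n = 3), and the 3 groups did not overlap. The RNA left in KO was counted at the 3′ end, downstream of the insertion, and does not measure protein. The library names carried 2 prefixes whose meaning is not given: WT replicates 1 to 3 and Het replicate 4 shared one, and Het replicates 1 to 3 and all KO embryos shared the other. KO and WT were therefore wholly split by prefix and cannot be told apart from it, while KO can be compared with Het replicates 1 to 3 within a prefix. A cell barcode kept in one library was also kept in another for 1.51% of cells and for 6 of the 254 cells with a Hox UMI, and no barcode had a Hox UMI in 2 libraries.

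Hox transcripts were very rare. The kept cells held 290 Hox UMIs among 1024570468 UMIs of all genes. Of the 40 gene IDs, 29 had at least 1 UMI, 20 of them between 1 and 9, and 11 had none (Hoxa2, Hoxa6, Hoxa10, Hoxb2, Hoxc12, Hoxd3, 1 ID of Hoxd4, and Hoxd10, Hoxd11, Hoxd12 and Hoxd13). Hoxc9 with 78 UMIs and Hoxb13 with 60 made up 47.6% of the total. Levels between members were compared as UMIs without a correction for length, because each molecule is counted once at its 3′ end.

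**Figure D1:**
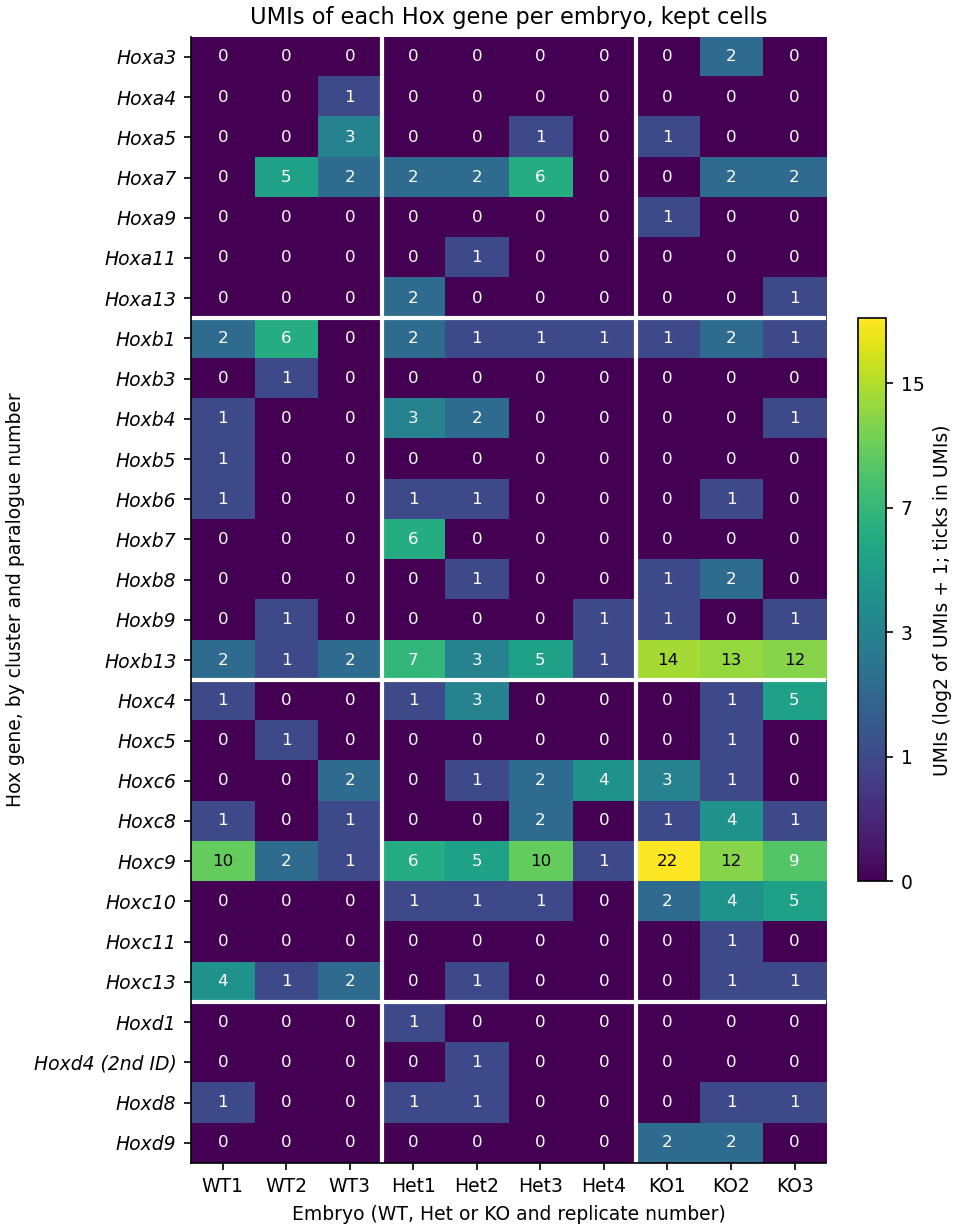
UMIs in kept cells (numbers in the squares) of the reported Hox gene IDs with at least 1 UMI (rows, by cluster and paralogue number) in each embryo (columns). The Hoxb13 row reads 12 to 14 in the KO embryos and 1 to 7 in all others, and the Hoxc10 row is 0 in every WT embryo.

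The total over all members was higher in KO. The WT embryos held 24, 18 and 14 Hox UMIs, the Het embryos 33, 24, 29 and 8, and the KO embryos 49, 50 and 41. Every KO embryo was above every WT and every Het embryo, and the lowest of all 10 was Het replicate 4, which carried the same prefix as WT. Scaled to 100M UMIs (100000000), with library sizes corrected by TMM, the total was 16.9 ± 4.20 in WT (SD, n = 3), 24.4 ± 12.5 in Het (n = 4) and 49.5 ± 10.7 in KO (n = 3). Because the members had been chosen as a group, this total was not tested. Without Hoxb13 and Hoxc9 the WT embryos held 12, 15 and 11 UMIs, the Het embryos 20, 16, 14 and 6, and the KO embryos 13, 25 and 20. These overlapped between all groups when scaled (11.5 ± 0.916, 14.5 ± 7.01 and 20.98 ± 9.31 per 100M), so the totals without these 2 genes did not separate the genotypes.

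Hoxb13, the most 5′ gene of the HoxB cluster, marks the tail end of the embryo and the prostate. Its UMIs numbered 2, 1 and 2 in the WT embryos, 7, 3, 5 and 1 in the Het embryos, and 14, 13 and 12 in the KO embryos. KO was above all other embryos with no overlap, and the lowest Het embryo was again replicate 4. In UMIs per 100M this was 1.55 ± 0.626 in WT, 4.17 ± 2.81 in Het and 13.7 ± 2.05 in KO. A gene was called at a Benjamini-Hochberg adjusted p under 0.05 and a log2 fold change beyond 0.25. The edgeR quasi-likelihood fit over all 17647 tested genes gave a log2 fold change of 3.07 (SE 0.60) in KO vs WT, with an adjusted p of 0.00280. In KO vs Het it was 1.74 (SE 0.47), with an adjusted p of 0.0453, and in Het vs WT 1.32 (SE 0.70), with an adjusted p of 0.251 that missed the threshold. Hoxb13 passed the filter on low counts through the KO embryos, where it was high, and was not tested when Het and WT were fitted alone. Without the filter its log2 fold change in KO vs WT was 3.06 (SE 0.61), with an adjusted p of 0.00243 in edgeR, whereas in KO vs Het it was 1.74 (SE 0.49) with an adjusted p of 0.0564, which was no call. The KO vs Het call was lost under 16 of 20 alternatives, with adjusted p between 0.0251 and 0.153 over all of them. Its log2 fold change was 1.34 to 1.89 in those 16 and 1.73 to 2.18 in the other 4.

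The background of these calls was high. Of all tested genes, 24.5% were called in KO vs WT (12% higher in KO), 5.5% in KO vs Het (2.53% higher in KO) and 2.98% in Het vs WT. Among the 50 tested genes no more abundant than Hoxc9, 5 (10%) were called higher in KO than in WT. Only 1 (2%) was called higher in KO than in Het. Hoxb13 is among the 50 and is counted in both, so the 1 gene called in KO vs Het is Hoxb13 itself. Hoxb13 was the 1 member called in KO vs WT and in KO vs Het, and no member was called in Het vs WT. Without the filter on low counts no member was called in KO vs Het. Only Hoxb13 and Hoxc9 passed the filter on low counts, so the other 38 IDs could not be called at all in this fit.

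The KO vs WT call of Hoxb13 did not survive the library prefix as a covariate, in which Het replicate 4 alone links the prefixes: the log2 fold change was then 0.51 (SE 1.59), with an adjusted p of 0.911 in edgeR. Over all 17647 tested genes, KO vs WT calls fell from 2121 higher and 2205 lower to 747 and 720 in that fit. Within the shared prefix, the 3 KO embryos (13.7 UMIs per 100M) were all above Het replicates 1 to 3 (5.29), a ratio of 2.59. The exact permutation test, two-sided, gave p = 0.1, the smallest that 3 against 3 embryos allow, and the edgeR fit on these 6 embryos gave a log2 fold change of 1.34 (SE 0.39) with an adjusted p of 0.0675. Within the other prefix, the 3 WT embryos (1 or 2 UMIs) and Het replicate 4 (1 UMI) overlapped.

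Hoxc9, a gene of thoracic spinal cord and trunk that sets motor neuron identity there, was the most abundant member. It had 10, 2 and 1 UMIs in the WT embryos, 6, 5, 10 and 1 in the Het embryos, and 22, 12 and 9 in the KO embryos. KO overlapped WT through WT replicate 1, whose scaled value of 9.06 per 100M exceeded the 9.0 of KO replicate 3, and overlapped Het through replicate 3. Means per 100M were 3.91 ± 4.47 for WT, 5.74 ± 3.92 for Het and 14.8 ± 5.83 for KO embryos. The log2 fold change was 1.89 (SE 0.73) in KO vs WT with an adjusted p of 0.0614 in the edgeR fit, 1.42 (SE 0.64) in KO vs Het with 0.222, and 0.47 (SE 0.79) in Het vs WT with 0.752, none past the threshold. Like Hoxb13, it passed the filter on low counts only with the KO embryos in the fit, and without the filter the log2 fold change in KO vs WT was 1.87 (SE 0.70) with an adjusted p of 0.0684. In the filtered fit the call turned on single libraries: without WT replicate 1 the log2 fold change in KO vs WT was 3.33 and the adjusted p 0.0162. Leaving out Het replicate 4 also gave a call, with 1.89 and 0.0303. With the prefix as a covariate the direction turned, to -1.15 (SE 1.63) with an adjusted p of 0.732.

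**Figure D2:**
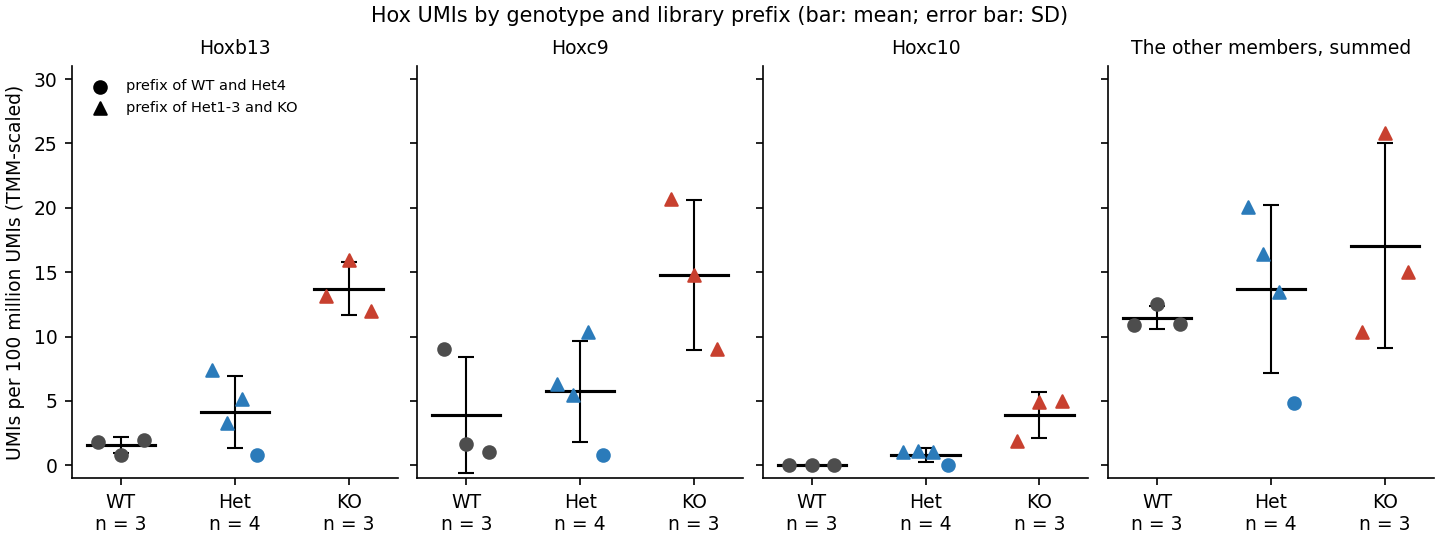
UMIs per 100M UMIs, TMM-scaled, of Hoxb13, Hoxc9, Hoxc10 and the sum of the other members in each embryo (points), by genotype, with the mean (bar) and SD; the marker shape gives the library prefix. For Hoxb13 the KO embryos lie between 12 and 16.0 and the WT embryos between 0.835 and 2.00.

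Hoxc10, which with its paralogues specifies lumbar motor neurons and hindlimb patterning, was not detected in WT. It had 0 UMIs in each WT embryo, 1, 1, 1 and 0 in the Het embryos, and 2, 4 and 5 in the KO embryos. The 11 UMIs of the KO embryos, 3.78 per 100M, were at least 4.08-fold higher than a floor of 3 counts over the WT group. Hoxc10 did not pass the filter on low counts. Without that filter it was called in KO vs WT with an adjusted p of 0.0125 in edgeR, where 16.7% of 25580 genes were called, and 0.719% of the 7789 genes with at most as many UMIs as Hoxc9 were called higher in KO. Hoxb13 and Hoxc10 are themselves counted in that 0.719%. Hoxc10 was not called in KO vs Het, with an adjusted p of 0.183 beside 3.57% of genes called. Its UMIs also followed the library prefix, with 0 in the WT embryos and Het replicate 4 and 1 to 5 in every other embryo. The KO vs WT call therefore cannot be told apart from the prefix. Within the shared prefix, KO (3.93 UMIs per 100M) did not overlap Het replicates 1 to 3 (1.06). The exact permutation test, two-sided, gave p = 0.1, the smallest that 3 against 3 embryos allow.

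Hoxb13 and Hoxc10 were the 2 of 29 detected IDs, 6.90%, for which every KO embryo was above every WT embryo. Of the genes with at least 1 and at most as many UMIs as Hoxc9, 4.39% showed the same separation, and of all tested genes 26.7% did.

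The other 37 IDs were at the level of single molecules. Hoxa7 (21 UMIs), Hoxb1 (17), Hoxc6 (13), Hoxc4 (11), Hoxc8 (10) and Hoxc13 (10) were the most frequent, none was called in any comparison without the filter, and their direction varied. Hoxb1, a gene of hindbrain segment identity, had 8 UMIs over the WT embryos, 5 over Het and 4 over KO. Hoxc13, known for hair and nail keratin genes, had 7, 1 and 2, and Hoxa7 had 7, 10 and 4. Hoxc8, next to Hoxc9 on its 3′ side, had 2, 2 and 6, and Hoxc4 had 1, 4 and 6. Hoxd9 was found only in 2 KO embryos, with 2 UMIs each. All 6 UMIs of Hoxb7 came from Het replicate 1, 4 of them from 1 cell. The remaining 18 detected IDs had between 1 and 7 UMIs each over all 10 embryos.

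By position, KO separated from WT and Het in the sum of the members with high paralogue numbers, in which Hoxb13, Hoxc9 and Hoxc10 held most UMIs. Members with paralogue numbers 9 to 13 held 16, 5 and 5 UMIs in the WT embryos, 16, 11, 16 and 3 in the Het embryos, and 42, 33 and 29 in the KO embryos. Scaled to 100M, this was 7.89 ± 5.74 in WT, 12 ± 6.76 in Het and 36.3 ± 6.38 in KO, and KO did not overlap the others. Numbers 1 to 4 held 3.49 ± 2.43 in WT and 5.03 ± 3.66 in KO, and numbers 5 to 8 held 5.55 ± 2.24 and 8.13 ± 5.80, both with overlap. Without Hoxb13 and Hoxc9, numbers 9 to 13 still held 4, 2 and 2 UMIs in WT, 3, 3, 1 and 1 in Het, and 6, 8 and 8 in KO. Hoxc10 supplied 11 of these 22 UMIs in KO. Not all 5′ members shared this: Hoxc13, at the 5′ end of HoxC, had more UMIs in WT than in KO, and Hoxd10 to Hoxd13 had none.

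By cluster, HoxC (7.95 ± 5.83 UMIs per 100M in WT, 26.0 ± 4.87 in KO) and HoxB (5.29 ± 2.90 and 17.7 ± 3.87) were higher in every KO embryo than in every WT embryo, and HoxB overlapped between KO and Het. HoxA (3.39 ± 3.08 and 3.6 ± 1.56) overlapped. HoxD (0.302 ± 0.523 and 2.19 ± 1.37) did not overlap either, but rested on 1 UMI in WT and 6 in KO. Without Hoxb13, HoxB overlapped: its remaining genes had 5, 8 and 0 UMIs in the WT embryos and 3, 5 and 3 in the KO embryos. In HoxC the genes other than Hoxc9 had 6, 2 and 5 UMIs in WT, 2, 6, 5 and 4 in Het, and 6, 13 and 12 in KO.

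**Figure D3:**
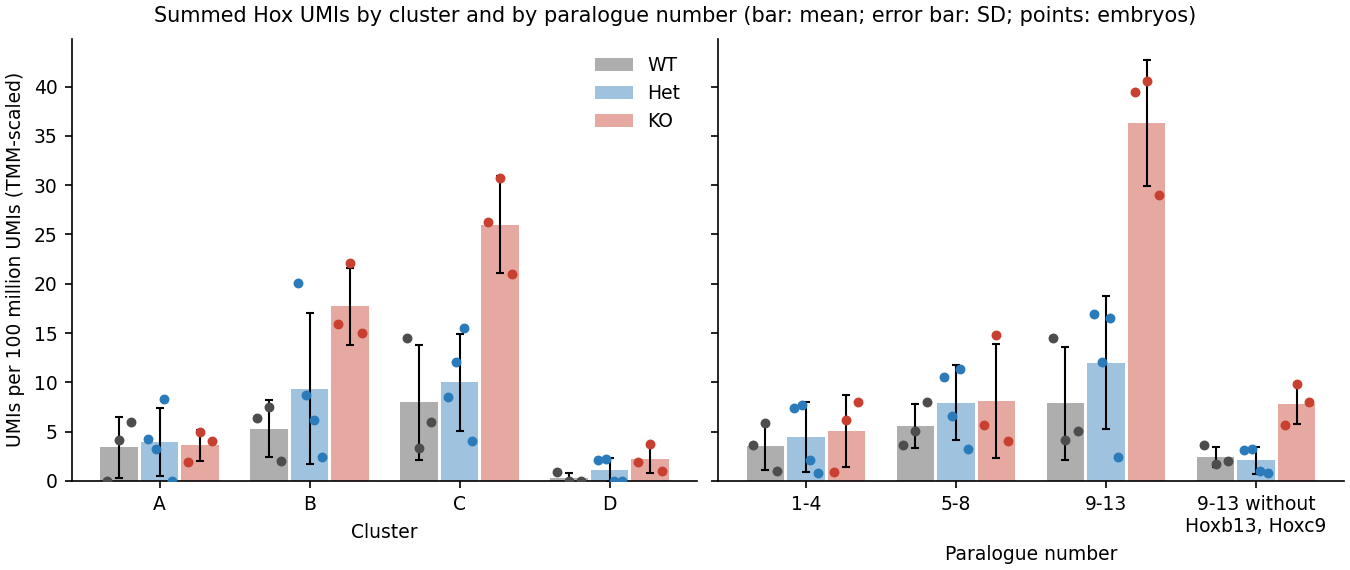
Summed Hox UMIs per 100M UMIs, TMM-scaled, by cluster (left) and by paralogue number (right), with the mean (bar), SD and each embryo (points). Paralogues 9 to 13 average 36.3 in KO and 7.89 in WT without overlap, whereas numbers 1 to 4 (5.03 and 3.49) and 5 to 8 (8.13 and 5.55) overlap.

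Hoxb13 has no close Hox neighbour, and its surroundings were measured as a check on its reads. Of the genes other than Hox genes within 100 kb, Ttll6 (28865 bases away, on the same strand) had 14 UMIs over the WT embryos, 0 over Het and 5 over KO, and Calcoco2 (82352 bases away) had 7, 2 and 2. The non-coding Gm53, 53658 bases away, had 6, 13 and 11. None of these was as high in KO relative to WT as Hoxb13, with 5, 16 and 39. Near Hoxc9, the non-coding Hotair on the opposite strand had 1 UMI in all.

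Cells with a Hox UMI were few, and most held a single molecule. At least 1 Hox UMI was found in 0.259%, 0.210% and 0.167% of the cells of the WT embryos, in 0.445%, 0.358%, 0.392% and 0.101% of the Het embryos, and in 0.767%, 0.855% and 0.615% of the KO embryos. The exact binomial 95% intervals were 0.157% to 0.281% for all WT cells (49 of 23069), 0.242% to 0.381% for Het (78 of 25523) and 0.616% to 0.879% for KO (127 of 17187), and cover counting error only. KO lay above the other groups in every embryo. KO cells were also deeper, with a median of 15345 UMIs against 12227 in WT and 14315 in Het. After each cell with at least 5000 UMIs was thinned to 5000, the WT embryos had shares of 0.0484% to 0.0760%, the Het embryos 0.0147% to 0.189% and the KO embryos 0.184% to 0.290%. The thinned KO embryos remained above the WT embryos but met Het replicate 1. Thinning left out 4330 WT, 2679 Het and 1523 KO cells, and the same cells unthinned gave 0.240%, 0.341% and 0.804%.

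Of 261 pairs of a cell and a member, 239 (91.6%) were a single UMI. Hoxb13 was found in 58 cells and Hoxc9 in 67, with at most 2 UMIs in a cell. Only 3 cells had 3 or more UMIs of a member: a Het replicate 3 cell with 6 of Hoxa7, the Het replicate 1 cell with 4 of Hoxb7 and a WT replicate 2 cell with 3 of Hoxa7. Only 7 cells held 2 members, and of these 4 were KO cells. The share of cells marked as likely doublets was 7.48% of the Hox-positive cells and 5.39% of all kept cells.

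Cell classes were named from marker genes, with the Hox genes kept out of the clustering. In layer V-VI-like neurons (markers Fezf2, Ldb2, Tle4, Hs3st4, Crym) the WT embryos held 3, 5 and 6 Hox UMIs, the Het embryos 9, 10, 7 and 4, and the KO embryos 20, 28 and 13. These came from 3963, 5019 and 3472 cells, and correspond to 16.2 UMIs per 100M of the class in WT (exact Poisson 95% interval 8.83 to 27.1), 26.2 in Het (17.7 to 37.4) and 72.8 in KO (55.7 to 93.5). Every KO embryo was above every WT embryo. In layer II-IV-like neurons (markers including Dok5 and Inhba) the values were 10.2 in WT (4.11 to 21.1), 21.8 in Het (12.2 to 35.9) and 55.2 in KO (34.6 to 83.6), also without overlap between KO and WT embryos. This class leaves out cluster 0, which scored best for the layer II-IV markers but was left unnamed. Per embryo, the Hox rates of cluster 0 overlapped, with 0 to 50.3 per 100M in WT and 9.31 to 69.9 in KO.

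Hoxb13 and Hoxc10 lay mainly in these neurons of the cortical layers. Of the 60 Hoxb13 UMIs, 48 (80.0%) were in the 2 layer classes, and of the 14 Hoxc10 UMIs, 13, whereas these classes held 45.1% of all UMIs. In layer V-VI-like cells Hoxb13 had 2, 0 and 1 UMIs in the WT embryos, 2, 3, 2 and 1 in the Het embryos, and 10, 10 and 4 in the KO embryos, or 3.46 per 100M in WT (0.714 to 10.1) and 28.7 in KO (18.4 to 42.6). In layer II-IV-like cells it had 0 UMIs in every WT embryo, 2, 0, 3 and 0 in the Het embryos, which overlapped KO, and 2, 2 and 4 in the KO embryos, at least 4.59-fold higher than a floor of 3 counts over the WT group. Cluster 0, outside this class, held 1 Hoxb13 UMI in WT, 2 in Het and 1 in KO.

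Hoxc9 lay largely in another cluster. Of its 78 UMIs, 35 (44.9%) were in cluster 4, which held 8.0% of all UMIs, and 20 were in the 2 layer classes. Cluster 4 was led by Tfap2d, Thsd7a and Nr2f2 among others, matched none of the marker lists and was left unnamed. Its Hoxc9 level was 42.7 UMIs per 100M over all genotypes (29.7 to 59.4) against 7.61 over all kept cells, and Hoxc9 was more frequent per UMI inside it than outside it in 8 of 10 embryos. The WT embryos had 8, 0 and 1 Hoxc9 UMIs there, the Het embryos 5, 1, 5 and 0, and the KO embryos 6, 5 and 4, so the groups overlapped within this cluster. The high Hoxc9 count of WT replicate 1 came from it, with 8 of 10 UMIs. In the layer classes no WT cell had a Hoxc9 UMI, against 6 UMIs in Het and 14 in KO. Per embryo this was 0 to 7.04 per 100M UMIs of these classes in Het and 0 to 17.0 in KO, so KO overlapped both other groups. Cluster 0, which was led by Unc5d, Pdzrn3 and Sema3c and also left unnamed, had 3 Hoxc9 UMIs in WT, 1 in Het and 9 in KO. Its best marker score was that of the layer II-IV list, and at a finer clustering (resolution 0.8) the clusters led by these genes were layer II-IV-like, so these 13 UMIs could also be counted with the 20 of the layer classes.

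**Figure D4:**
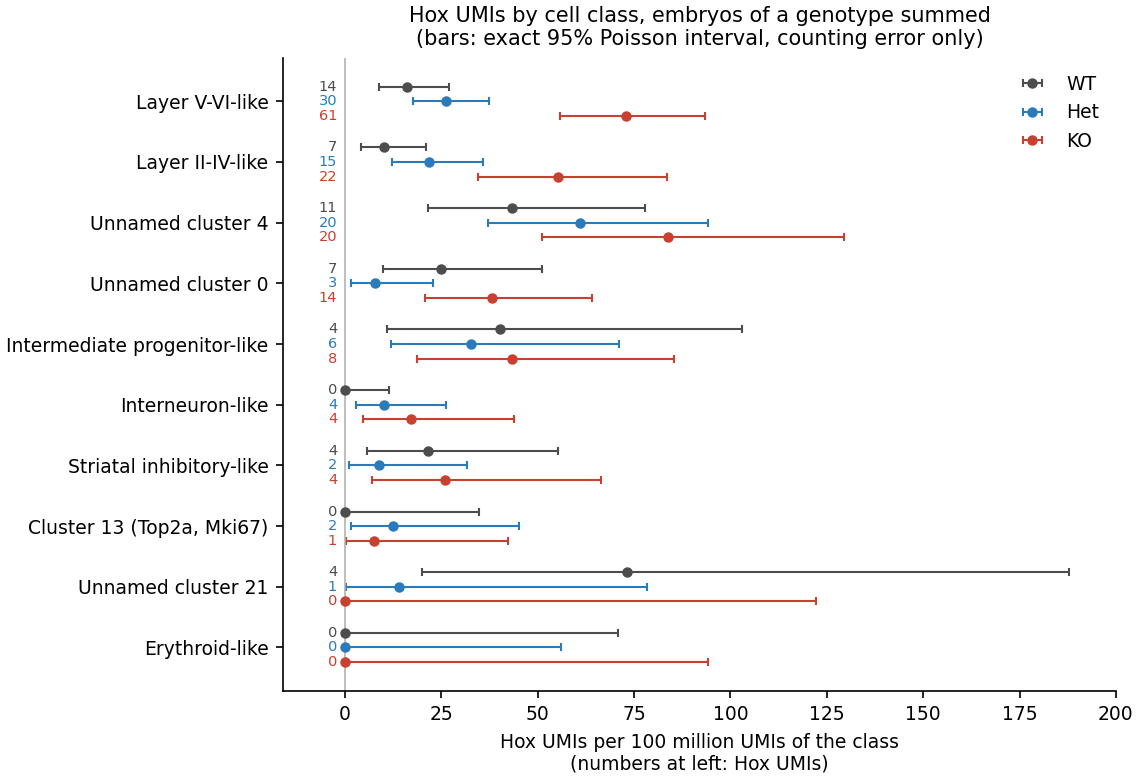
Hox UMIs per 100M UMIs of a class, the embryos of a genotype summed, with exact 95% Poisson intervals that cover counting error only; the numbers at the left are the Hox UMIs. The KO interval lies above the WT interval in layer V-VI-like and layer II-IV-like cells (72.8 against 16.2 and 55.2 against 10.2), and cluster 21 has its UMIs in WT and Het.

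The other classes gave few UMIs each. In interneuron-like cells (Lhx6, Maf, Nxph1) there were 0 Hox UMIs in WT, 4 in Het and 4 in KO, in striatal inhibitory-like cells 4, 2 and 4, and in intermediate progenitor-like cells (Eomes, Neurog2) 4, 6 and 8. Cluster 13, which scored highest for ganglionic eminence progenitor markers but had none of them among its 10 leading genes and was led by genes of dividing cells such as Top2a and Mki67, had 0, 2 and 1. Cluster 21, left unnamed, went the other way: each WT embryo held 1 or 2 Hox UMIs there (51.9 to 86.4 per 100M), and no KO embryo held any. Its KO cells were few, and the exact Poisson interval of their rate reached 122 per 100M. Microglia-like cells held 2 Hox UMIs in WT, 3 in Het and 0 in KO, and mural or fibroblast-like cells 1, 4 and 1. The rates of these small classes were high, up to 345 per 100M in microglia-like Het cells, with an interval of 71.1 to 1008. No Hox UMI was found in 1565 erythroid-like cells at a median of 9179 UMIs, which allows a share of cells with a Hox UMI of up to 0.192%, and the exact Poisson interval of their rate reached 94.2 per 100M in KO. Barcodes that were not kept held 6 Hox UMIs over all libraries, or 17.5 per 100M (6.41 to 38.03), beside 28.3 (25.1 to 31.8) over all kept cells. The part of free RNA in the Hox counts was not tested. In the 2 inhibitory classes together, at a median of 7590 to 8320 UMIs per cell, the rate was 7.93 per 100M in WT (2.16 to 20.3) and 20.6 in KO (8.91 to 40.7), against 13.5 (8.38 to 20.7) and 67.2 (53.5 to 83.2) in the 2 layer classes. In KO the interval of the layer classes lay wholly above that of the inhibitory classes. Per embryo, the inhibitory classes also did not overlap, with 5.93 to 10.7 in WT and 15.9 to 28.5 in KO, on 1 to 4 UMIs an embryo. Unnamed clusters held 30.0% ± 1.41 of the cells in WT, 27.3% ± 2.70 in Het and 30.4% ± 2.25 in KO.

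No member passed the filter on low counts within any class, so none could be called there. Without the filter, KO vs WT calls in edgeR were Hoxb13 and Hoxc9 in layer II-IV-like cells (adjusted p of 0.00608 and 0.0141) and Hoxb13 and Hoxc10 in layer V-VI-like cells (0.00494 and 0.0453). Without the filter 17.2% of all genes were called in layer II-IV-like and 16.2% in layer V-VI-like cells in KO vs WT, and 7.02% and 6.84% in KO vs Het. Of these 4, only Hoxb13 in layer V-VI-like cells had WT UMIs to compare with, with a log2 fold change of 2.94 (SE 0.78). In KO vs Het, Hoxb13 was called in layer V-VI-like cells (adjusted p of 0.0404 in edgeR) and Hoxc9 in layer II-IV-like cells (0.0302), where it had 0 UMIs in every Het and every WT embryo and 4, 3 and 0 in the KO embryos, which thus overlapped. With the filter, 24.8% of the genes tested in layer V-VI-like cells and 25.8% of those in layer II-IV-like cells were called in KO vs WT.

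**Figure D5:**
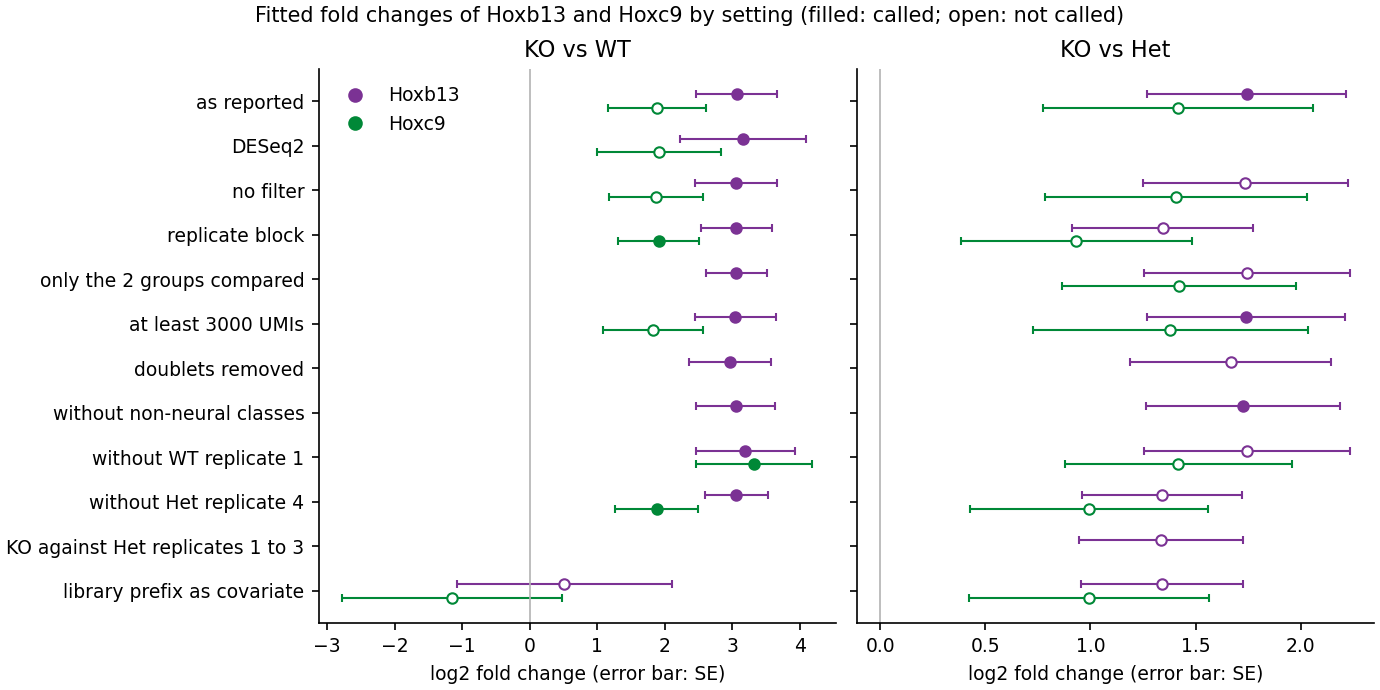
Log2 fold changes with SE of Hoxb13 and Hoxc9 in KO vs WT (left) and KO vs Het (right) under the reported fit and alternatives; filled points passed the call and a missing point was not tested or had no adjusted p. The Hoxb13 change in KO vs WT is 3.07 in the reported fit and 0.51 with the library prefix as a covariate, where its SE is 1.59.

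The 8 non-coding RNAs of the clusters that the files contained summed to 0.0701 to 0.109 CPM over the WT embryos, 0.120 to 0.153 over Het and 0.111 to 0.170 over KO. Every Het and every KO embryo was above every WT embryo, on few UMIs, and Het and KO overlapped. Hotairm1, transcribed from the 3′ end of HoxA, had 4, 5 and 2 UMIs in the WT embryos, 2, 4, 3 and 6 in the Het embryos, and 6, 3 and 6 in the KO embryos. Halr1, beyond the 3′ end of HoxA, had 6, 8 and 3, then 9, 6, 8 and 6, and then 5, 1 and 8. Both overlapped between WT and KO, whereas Hoxaas3, with 1, 0 and 1, then 3, 3, 1 and 3, and then 2, 2 and 2, was higher in every KO embryo than in every WT embryo. None of the 8 passed the filter, so none was tested. Of the genes that flank the 4 clusters, 19 of 23 were tested; 0 were higher and 3 lower in KO than in WT, beside a background of 12% higher and 12.5% lower. These were Smug1, a DNA glycosylase near HoxC (-0.39), Nfe2l1 near HoxB (-0.33) and Jazf1 near HoxA (-0.28 on the log2 scale), and all 3 calls were lost in the fit with the prefix as a term. That fit called 747 of 17647 tested genes higher and 720 lower in KO vs WT, beside 2121 and 2205 in the reported fit.

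The regulators of Hox genes were counted beside the 12% of all tested genes that were called higher and the 12.5% called lower in KO vs WT. The fold changes of these and the other listed genes are from UMIs summed over all kept cells, whose mix differed between groups. Intermediate progenitor-like cells made up 2.94% of WT and 5.97% of KO cells, and layer II-IV-like cells 15.8% and 10.1%. The part of this mix in the changes was not tested. Of 31 Polycomb genes, 3 were higher and 2 lower in KO than in WT (median log2 fold change 0.01, against -0.01 over all genes). The accessory subunits Phf19 (0.80) and Epop (0.51) rose, as did Pcgf5 (0.34), and Ezh1, a methyltransferase (-0.46), and Cbx6 (-0.38) fell. Ezh2 (0.24), Suz12 (0.18) and Eed (0.14), the core of the H3K27 methyltransferase complex, had adjusted p of 0.00312, 0.00521 and 0.0282 in edgeR and were not called because their changes were under 0.25. Of 11 Trithorax genes and H3K27 demethylases, which oppose Polycomb, 3 rose and 0 fell: the demethylases Kdm6a (0.59) and Kdm6b (0.35) and the methyltransferase Kmt2d (0.42). Kdm6a also varied within groups, with 2219, 3175 and 2003 UMIs in the WT embryos and 3126, 1971, 3043 and 3553 in Het. The KO embryos had 3555, 2589 and 3544. The labels give no sex for the embryos, and the part of sex in Kdm6a was not tested. Of 13 NuRD genes, 4 rose and 2 fell, Cdk2ap1 (1.06), Hdac1 (0.54), Gatad2a, the paralogue of Gatad2b (0.45), and Mbd2 (0.26) against Gatad2b (-1.32) and Chd5 (-0.56). Of 10 TALE cofactors, the homeodomain partners of Hox proteins, Pbx4 (0.34) and Meis3 (0.25) rose and Pknox2 (-0.41) fell. Several of these changes followed the library prefix: scaled to the library sizes, Cdk2ap1, Kdm6b and Kmt2d in Het replicate 4 lay below the other Het embryos and close to WT. With the prefix as a covariate the KO vs WT log2 fold change was 0.35 for Cdk2ap1, 0.12 for Kdm6b and 0.09 for Kmt2d, with adjusted p of 0.166, 0.392 and 0.669 in edgeR. Kdm6a, Phf19, Ezh1, Cbx6 and Chd5 were not called in that fit either, whereas Hdac1, Gatad2a, Mbd2, Gatad2b, Epop, Pcgf5, Pbx4, Meis3 and Pknox2 were. Among all genes tested with the prefix, 747 were called higher and 720 lower in KO vs WT.

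Other homeobox genes of posterior or non-neural tissue were also measured. Of 42, 14 were tested in KO vs WT, 4 rose and 3 fell, with a median log2 fold change of 0.27, beside 12% of all tested genes called higher and 12.5% called lower. En2, a gene of the midbrain-hindbrain boundary, had 17, 8 and 8 UMIs in the WT embryos, 28, 21, 25 and 22 in the Het embryos, and 53, 48 and 37 in the KO embryos, with no overlap and a log2 fold change of 2.26 (SE 0.33, adjusted p 0.000516 in edgeR). Hmx1, a gene of sensory ganglia and the ear, had 15, 12 and 8, then 22, 17, 18 and 18, and then 40, 31 and 30, with a log2 fold change of 1.72 (SE 0.27, adjusted p 0.000773). Scaled to the library sizes, Het replicate 4 was the lowest Het embryo for both genes, as for Hoxb13. Six2 (1.78) and Prrx1 (0.47) also rose, and Msx1 (-2.82), Barx2 (-1.56) and Gsx1 (-0.84) fell. Gsx1 is an exception in this list, as it also served here as a marker of ganglionic eminence progenitors. The size of the Msx1 change rested on WT replicate 1, which had 334 UMIs beside 50 and 27 in the other WT embryos and 20, 7 and 24 in the KO embryos. With the prefix as a covariate the adjusted p in KO vs WT was 0.0820 for En2 and 0.121 for Hmx1, and none of the 7 genes was called. Over all genes tested, that fit called 747 higher and 720 lower in KO vs WT, beside 2121 and 2205 in the reported fit.

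Retinoic acid is the signal that opens Hox genes in the hindbrain. Of 15 tested genes of its pathway, 2 rose and 2 fell in KO vs WT, a share near the 24.5% called over all tested genes. Crabp2, which carries retinoic acid to its nuclear receptors, had 65, 150 and 66 UMIs in the WT embryos, 191, 173, 286 and 293 in the Het embryos, and 568, 1011 and 918 in the KO embryos. Its log2 fold change was 3.41 (SE 0.35, adjusted p 5.38e-05 in edgeR), and 3.45 with an adjusted p of 0.00506 when the prefix was a covariate. Crabp1 (0.46) also rose, and the receptors Rarb (-0.85) and Rxrg (-0.92) fell, but these 3 calls were lost with the prefix as a term. Markers of hindbrain and spinal cord were measured beside the Hox genes as they would accompany tissue from behind the forebrain. Of 29, Evx1 had no UMI in any library, 11 were tested, and 2 (En2, Pax2) rose and 3 (Gata3, Tal1, Tph2) fell in KO vs WT, beside the same 24.5%, and these 5 calls were lost with the prefix as a term. Over all 17647 tested genes, KO vs WT calls with the prefix as a term were 747 higher and 720 lower. The summed level of the 29 ranged from 54.7 to 59.97 CPM over the WT embryos, from 58.3 to 61.5 over Het and from 48.6 to 51.7 over KO. The KO embryos thus lay below the others, and a single gene supplied most of each sum. The part of these markers in the Hox counts was not tested.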

How the data were processed

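Single-cell libraries (10X 3′ v3 chemistry, 1 per embryo) were made from the cortex of 10 embryos at E16.5. The deposited values are raw UMI counts per gene and cell barcode, which the authors made with Cell Ranger on mm10; the submitters' processing notes give version 6.0.2. Groups came from the sample labels. The members and gene lists were chosen with earlier results of these data known.

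A cell was kept from 1000 UMIs upwards if its mitochondrial UMIs did not exceed 10%, leaving 82872641 to 123737385 UMIs per embryo. They were clustered with Seurat 5.3.0 (2000 variable genes without Hox genes, 30 components, resolution 0.4), and clusters were named from marker genes. Doublets were scored with Scrublet in scanpy 1.11.5, whose own threshold marked 0.0128% to 2.53% of cells per library. The highest scores were therefore marked at 0.8% per 1000 cells, and these cells were removed only in an alternative.

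UMIs were summed per embryo and tested with edgeR 4.0.16 in R 4.3.3 (quasi-likelihood, filterByExpr, TMM, all 10 embryos in 1 fit, Benjamini-Hochberg over all genes tested), after a test on simulated data with known changes. Calls required an adjusted p below 0.05 with a log2 fold change beyond 0.25 in either direction. Named genes were the members and, from the other lists, those called; the values of a few of them are not reported here. Intervals are exact 95% intervals and, like the floor of 3 counts, cover counting error only. Alternatives were DESeq2 1.42.0, other filters on genes and cells, the library prefix, the replicate block and leaving out each embryo. Homeoboxes were found by scanning the reading frames of GENCODE vM21 transcripts.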

Additional observations from a re-analysis of the deposited data

Results flagged for a closer look

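Among 36 sets of 4 Het values, 11 held an embryo farther from the others than Dixon's 95% critical value allows. The usual rate of about 1 flag by chance in 20 sets is for normally distributed values and does not apply to such sparse counts. In 10 of these 11 sets 1 embryo had UMIs and the other 3 had none. Such a set always passes the critical value, so the flag only marks the presence of 1 to 6 molecules. In UMIs per 100M, Het replicate 1 stood apart for Hoxb7 (6.35), Hoxa13 (2.12) and Hoxd1 (1.06). Het replicate 2 did so for Hoxa11, Hoxb8, Hoxc13 and the second Hoxd4 ID (1.09 each). Het replicate 3 did so for Hoxc8 (2.07) and Hoxa5 (1.04), and Het replicate 4 for Hoxb9 (0.80). For Hoxc10 the reverse held: Het replicate 4 had 0 and the other 3 Het embryos had 1 UMI each.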

How the results depend on the processing

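In KO vs WT, Hoxb13 was called in 19 of 20 alternatives, with log2 fold changes of 2.75 to 3.26, and was lost with the library prefix as a covariate (0.51). The number of members called in KO vs WT was 1 in the reported fit, 2 without the filter on low counts, 0 with the prefix and 1 to 2 when each embryo was left out. In KO vs Het it was 1, and became 0 without the filter, with the prefix, with only the 2 groups compared, against Het replicates 1 to 3, with all barcodes and with doublets removed, and 0 to 1 when each embryo was left out. In Het vs WT it was 0, and 0 to 1 when each embryo was left out: without Het replicate 4 Hoxb13 was called (1.72, adjusted p 0.0459 in edgeR). Within classes 0 members were called and 4 without the filter. With the prefix, 3 directions turned: Hoxb13 in Het vs WT (-0.83), Hoxc9 in Het vs WT (-2.14) and Hoxc9 in KO vs WT (-1.15). The cause of these changes was not tested.

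Same-numbered embryos did not deviate together (correlations of -0.299 to 0.12), so the numbers do not pair the embryos. With the replicate block 2 members were called in KO vs WT (Hoxb13 and Hoxc9, 1.91 with an adjusted p of 0.0292 in edgeR) and 0 in KO vs Het. Only Het has a replicate 4, so the block takes that embryo out of the comparisons. The Hoxc9 result was thus close to that without Het replicate 4 (1.89, adjusted p 0.0303 in edgeR).

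The total of Hox UMIs per 1000000 UMIs was higher in KO than in WT by 0.317, and by 0.229 to 0.353 under 11 alternatives. The difference of the median over members was 0, and without Hoxb13 and Hoxc9, an alternative chosen after seeing the data, it was 0.0909. The share of cells with a Hox UMI was higher by 0.534 percentage points, and by 0.186 after thinning to 5000 UMIs. DESeq2 gave no adjusted p for Hoxb13 in Het vs WT and KO vs Het. No member passed the filter at 5% mitochondrial UMIs or with only Het and WT fitted, and leaving out embryos was not run within classes, where no member was tested. Members other than Hoxb13 and Hoxc9 held at most 21 UMIs each, and whether depth limited their calls was not tested.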
